A study of Homo sapiens with 8 samples.

Results

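Genes of glycolysis and pyruvate metabolism were followed on 8 one-colour arrays of 2 thyroid cell lines in which miR-375 was raised or inhibited. The set holds 44 genes, chosen by name for their function. It covers the glucose transporters and hexokinases (with HKDC1), the glycolytic enzymes, lactate handling, glycerol phosphate (with GPD1L) and the pyruvate dehydrogenase system. All 44 were on the array, 42 under the symbol used here and 2 (MPC1 and MPC2) through their RefSeq accession, with 59 probes in all. The whole array had 50599 probes and 36337 gene names.

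Glucose enters a cell through transporters of the SLC2A family, is trapped by hexokinases as glucose 6-phosphate, and is cut down to pyruvate by the enzymes of glycolysis. Pyruvate is then either reduced to lactate by lactate dehydrogenase, which leaves the cell through SLC16A transporters, or carried into mitochondria, where the pyruvate dehydrogenase complex feeds it to the tricarboxylic acid cycle. Several steps have paralogous enzymes, and cell types differ in which paralog they use.

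Nthy-ori 3-1 (ORI) is an immortalized line of non-tumoral thyroid follicular cells, and TT is a line from a medullary thyroid carcinoma, a tumour of the calcitonin-producing C cells. Nthy-ori 3-1 cells were transfected for 48 h with pre-miR-375, a synthetic precursor of the miRNA, at 5 nM, and TT cells with antagomiR-375, its inhibitor, at 20 nM. These concentrations are those of the labels, and the methods state higher ones for both reagents. Each treatment had its own control transfection, labelled CTL, and each of the 4 groups had 2 arrays. The methods call the control of the mimic pre-miR-CTL and describe the replicates as biological. Each result describes 1 cell line, the inhibitor and the mimic were used at different concentrations in different lines, and each slide held 1 line, with the treated and the control array of a replicate number on the same slide. The numbers are those of the titles, while other labels of the TT samples carry other replicate suffixes. The RNA integrity number was 8 on both TT control arrays and 9 on the other 6 arrays.

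Between 26104 and 30926 probes per array were well above background. SEC23A, the miR-375 target that the study followed, was 1.39 lower on the log2 scale with pre-miR-375 (adjusted p = 0.0229, limma) and 0.65 higher with antagomiR-375 (adjusted p = 0.237). No probe for the miRNA itself was on the array. TT arrays carried all 9 C cell and neuroendocrine markers measured, of 10 listed, and 0 of 9 was above background on a control array of Nthy-ori 3-1. Of the 9 follicular markers, TSHR, NKX2-1, DIO1 and DUOX2 were not above background on any Nthy-ori 3-1 array, while PAX8 and FOXE1 were. On both pre-miR-375 arrays 6 of the 9 neuroendocrine markers were above background by their brightest probe, CALCA (the calcitonin gene), CHGA, CHGB, SYP, SCG2 and SCG3. For CALCA this holds for 1 of its 3 probes, and the others were not above background on any Nthy-ori 3-1 array. That probe rose by 4.21 and 0.94 in the 2 pairs and was not called (adjusted p = 0.146, limma). Of the 6, SCG2 (4.22, adjusted p = 0.0194, limma), SYP (3.82, 0.0194) and CHGB (1.92, 0.0397) were called higher with the mimic on the log2 scale. Among all genes tested 3.77% were called higher. These markers were tested only through the mimic arrays, where they were above background, so a call could only be higher and is no added support. With each control array raised to its lowest signal well above background, the rises were at least 8.60-, 2.77- and 2.81-fold. The summed linear signal of the whole list was 543 to 649 there, against 83.1 to 92.4 on the control arrays and 487254 to 547282 on TT arrays. INSM1 and CEACAM5 were not above background on any Nthy-ori 3-1 array. The part of these markers in the results below was not tested.

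The mature miRNA that was added or inhibited is shown because its seed, bases 2 to 8 in capitals, sets which transcripts it can pair with. RefSeq places it on the minus strand of chr2:219001648-219001669 (GRCh38.p14).
hsa-miR-375-3p: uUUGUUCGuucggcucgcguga
The DNA complement of the seed, CGAACAA, was present in 0 of the 59 probes of the set and in 31 of the 50599 probes on the array. The probes are short stretches of each transcript, and the rest of the transcripts was not searched.

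Pre-miR-375 lowered 5 genes of the set in Nthy-ori 3-1 cells and raised 1. The 5 were lactate dehydrogenase B (LDHB), hexokinase 2 (HK2), the glycerol 3-phosphate dehydrogenase homologue GPD1L, the glucose transporter SLC2A1 and the lactate exporter SLC16A3, by 1.66- to 7.0-fold. The glucose transporter SLC2A3 rose 2.25-fold. The other enzymes between glucose 6-phosphate and pyruvate did not pass the test, with log2 fold changes between -0.33 and 0.44. Of the 42 genes of the set tested, 6 (14.3%) were called at an adjusted p of at most 0.05 (limma, 8 arrays in 1 fit with the slide as a block), against 8.72% of all 20683 genes tested. The share called lower was 11.9% in the set and 4.95% among all genes, and the share called higher was 2.38% and 3.77%. The median log2 fold change was -0.05 over the set and 0.03 over all genes. These calls rest on 2 pairs of arrays: none of the 6 was called when each line was fitted alone, when either pair of arrays of either line was left out, or when dim probes were kept, while their direction was the same in all 14 alternatives. Several of these alternatives leave the fitted change as it is, so the direction could not differ there. They are the fits without the block or with each line alone, the changed filters on dim probes, the intensity trend and the omission of a TT pair. Leaving out an Nthy-ori 3-1 pair gives the other pair alone, and the genes were chosen on both. With 2 arrays per group an exact two-sided permutation test of a single gene that ignores the pairing cannot go below p = 0.333. One within pairs has fewer arrangements and so a higher floor. The 6 genes were chosen by the limma test, so the separation of their groups on the same arrays, given below, is no added support.

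**Figure D1:**
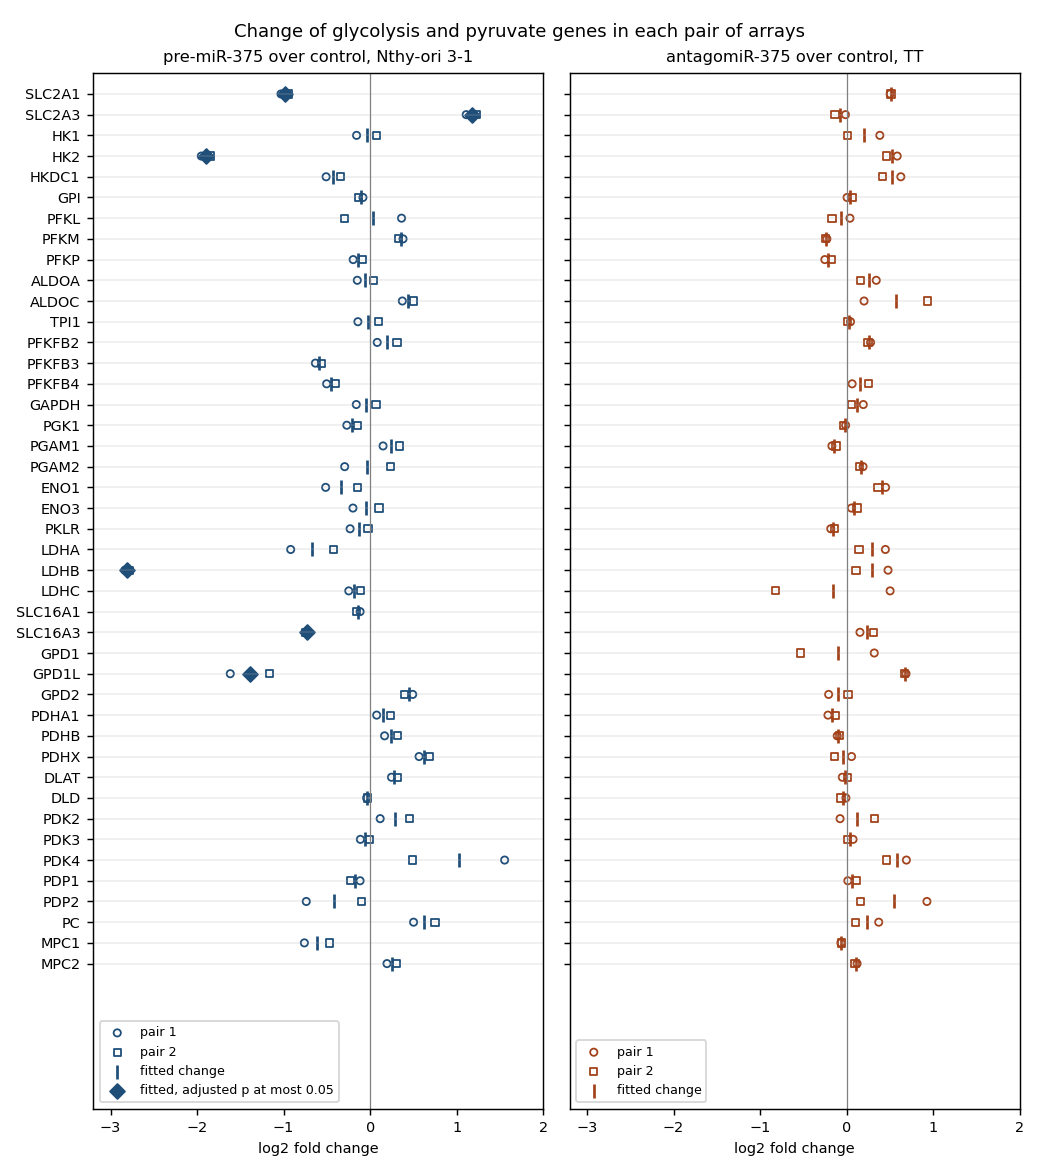
The log2 fold change of treated over control cells (horizontal axis) is drawn for each gene of the set that was tested, for the mimic in Nthy-ori 3-1 (left) and the inhibitor in TT (right). Open circles and squares are the 2 pairs of arrays, short bars the fitted change and filled diamonds the 6 genes with an adjusted p of at most 0.05, which are all in Nthy-ori 3-1.

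Glucose uptake and its first step were measured by 6 genes, of which HK3 was not above background on enough arrays to be tested in any comparison. HK2, the inducible hexokinase bound to mitochondria, had log2 signals of 10.64 and 10.88 in the 2 control cultures of Nthy-ori 3-1 and 8.69 and 9.04 with pre-miR-375. The groups did not overlap, and the change was -1.90 (SE 0.101, adjusted p = 0.0194, limma), with -1.95 and -1.85 in the 2 pairs. The probe lies at chr2:75120331-75120390 (hg19, the build of the array design). A second HK2 probe was not above background on any array and was not tested. SLC2A1, the ubiquitous glucose transporter GLUT1, had log2 signals of 11.99 and 12.02 in control cells and 10.96 and 11.08 with the mimic, a change of -0.98 (SE 0.095, adjusted p = 0.0265). Both treated arrays lay below both controls. The other SLC2A1 probe, above background on 1 array of each group, gave -0.45 (adjusted p = 0.775). SLC2A3, the high-affinity transporter GLUT3, went from 5.85 and 6.62 to 6.96 and 7.85. Both treated arrays were above both controls, and the change was 1.17 (SE 0.101, adjusted p = 0.0242). Its other probe, above background on 1 array of each group, gave 0.79 (adjusted p = 0.156). HK1, the hexokinase that most tissues express, had a log2 fold change of -0.04 (adjusted p = 0.882).

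HKDC1, a hexokinase domain protein, is in the list of candidate targets that the study chose on these same samples, so its direction there is not independent evidence. Its brighter probe read 7.51 and 7.68 in Nthy-ori 3-1 controls and 7.0 and 7.33 with pre-miR-375, a change of -0.43 that did not pass the test (adjusted p = 0.103, limma). Its other probe, farther along the gene at chr10:71026958-71027017 (hg19), read 6.34 and 7.29 in controls and 3.65 and 5.11 with the mimic. That change was -2.44 (SE 0.19, adjusted p = 0.0227), and the probe was above background on 1 of the 2 mimic arrays. The 2 probes therefore gave the same direction and different sizes. In TT cells the brighter probe went from 7.0 and 6.93 to 7.63 and 7.34 with antagomiR-375 (0.52, adjusted p = 0.26) and the other from 6.91 and 7.04 to 7.94 and 7.69 (0.84, adjusted p = 0.262). Among 22572 genes, patterns among the most like that of HKDC1 over the 8 arrays, each line centred on its own mean, were those of CEACAM1 (Pearson r = 0.991) and MOB3A (0.985), as a description with no test.

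**Figure D2:**
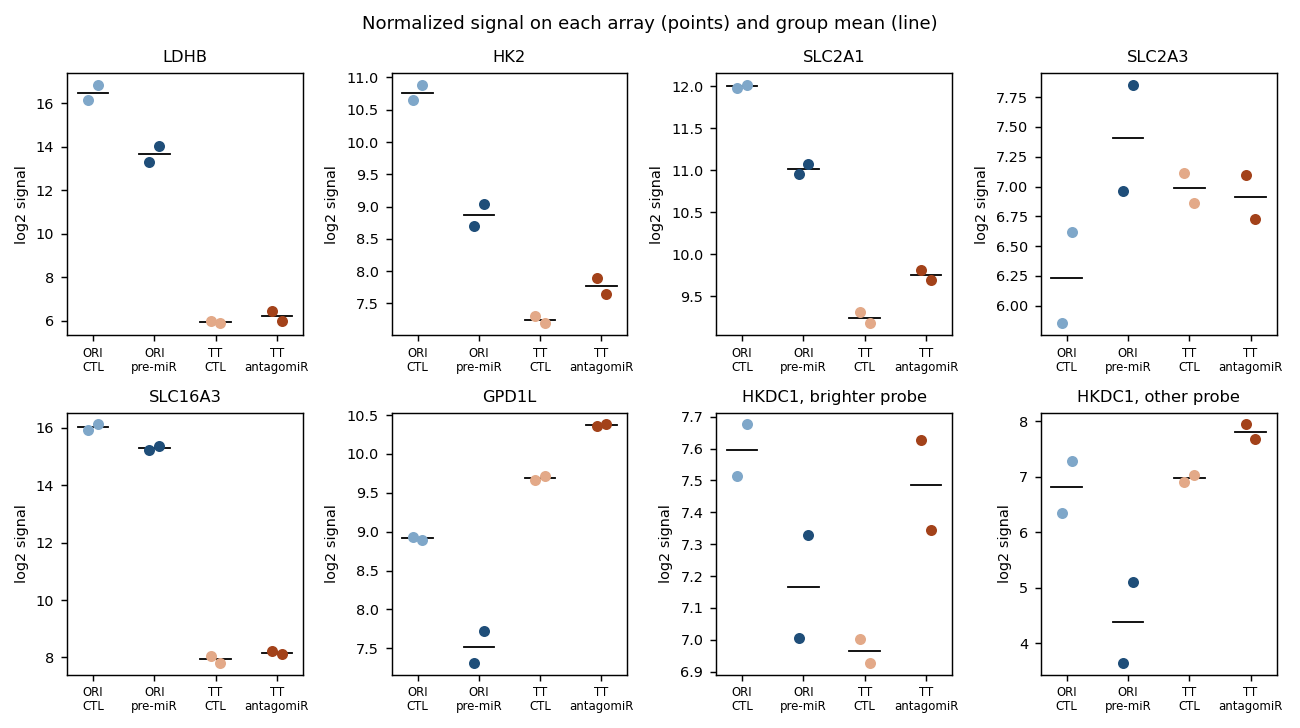
Normalized log2 signal (vertical axis, a separate scale in each panel, not starting at 0) on each of the 8 arrays for the 6 genes called in Nthy-ori 3-1 and for both probes of HKDC1. Points are arrays and lines group means. In each panel of the 6 genes, the 2 pre-miR-375 arrays lie on one side of the 2 ORI controls. The 6 were chosen by their test on these arrays, so this is no added support.

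Upper glycolysis was measured by 7 genes, and 0 was called with pre-miR-375. Of all genes tested 8.72% were called, so 0 among 7 genes, here or in lower glycolysis, is not far from that share. GPI, which isomerizes glucose 6-phosphate, changed by -0.11 (adjusted p = 0.507), aldolase A by -0.06 (0.781) and triose phosphate isomerase by -0.02 (0.908), all log2. The phosphofructokinases PFKL, PFKM and PFKP had values of 0.03, 0.35 and -0.14 with adjusted p of 0.932, 0.1 and 0.399. Of the enzymes that set fructose 2,6-bisphosphate, the main activator of phosphofructokinase, PFKFB3 had -0.60 (adjusted p = 0.107), PFKFB4 -0.45 (0.0837) and PFKFB2 0.20 (0.321). Lower glycolysis had 0 of 7 genes called, among them GAPDH at -0.05 (0.829), PGK1 at -0.21 (0.25) and ENO1 at -0.33 (0.202). Several of these genes have near-identical copies in the genome, so their probes may read more than 1 transcript.

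The 5 lactate genes all had negative values, and 2 of them passed the test. Of all 20683 genes tested, 9546 had negative values and 4.95% were called lower. LDHB encodes the H subunit of lactate dehydrogenase, which favours the conversion of lactate to pyruvate. Its log2 signal was 16.13 and 16.83 in the controls and 13.30 and 14.05 with pre-miR-375. Every treated array was below every control, and the change was -2.81 (SE 0.132, adjusted p = 0.0194, limma), the largest of the set. A second probe gave -2.95 (adjusted p = 0.0218). The probes lie at chr12:21788449-21788508 and chr12:21791305-21791364 (hg19). LDHA, the M subunit that favours lactate formation, read 15.47 and 16.11 in controls and 14.55 and 15.69 with the mimic. Its groups overlapped, and the change of -0.67 did not pass the test (adjusted p = 0.0992), though it passed with normexp, median signal and the intensity trend. SLC16A3, the lactate exporter MCT4, went from 15.94 and 16.12 to 15.22 and 15.38 (-0.73, SE 0.1, adjusted p = 0.038). SLC16A1, the widely used transporter MCT1, had -0.14 (adjusted p = 0.399), and LDHC, a testis form, had -0.18 (0.775).

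Glycerol phosphate dehydrogenases link glycolysis to lipid synthesis and to the mitochondrial electron chain. GPD1L, also in the study's own list chosen on these samples, read 8.93 and 8.89 in controls and 7.32 and 7.73 with pre-miR-375, so that the groups were apart by over 1 log2 unit. Its change was -1.39 (SE 0.146, adjusted p = 0.0284, limma), with -1.62 and -1.17 in the 2 pairs. The mitochondrial enzyme GPD2 had 0.44 (adjusted p = 0.0922). GPD1 was above background on too few Nthy-ori 3-1 arrays to be tested there.

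None of the 13 genes that handle pyruvate in mitochondria was called with pre-miR-375. Of all genes tested 8.72% were called, so none among 13 is not far from that share. In the pyruvate dehydrogenase complex, values ran from -0.03 for DLD to 0.63 for PDHX (adjusted p = 0.0535). The kinase PDK4, which switches the complex off, had 1.02 (adjusted p = 0.116) and differed between the pairs, at 1.55 and 0.49. Pyruvate carboxylase (PC), which makes oxaloacetate from pyruvate, had 0.63 (0.0708). Of the subunits of the mitochondrial pyruvate carrier, MPC1 had -0.62 (0.0609) and MPC2 0.25 (0.192). PDHX, PC and MPC1 passed under 5 alternatives each. Outside this group LDHA, PFKFB3, PFKFB4, PFKM and GPD2 also passed under some.

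In TT cells with antagomiR-375, 0 of the 41 genes of the set tested was called, as were 0 of all 22695 genes tested (0%), where 3180 genes had an unadjusted p under 0.05 and the smallest adjusted p was 0.235 (limma). The set stayed at 0 in every alternative, while some of all genes (48 with the deposited values, 142 with normexp background correction) were called under 4 of them. The median log2 fold change was 0.09 over the set and -0.01 over all genes. The RNA integrity number differed between the TT controls and the treated cultures and cannot be told apart from the treatment. HK3, PFKFB3 and SLC16A1 were not above background on enough TT arrays to be tested.

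The 6 largest values that went the same way in both pairs were all positive. Of the 41 genes of the set tested 25 had positive values, against 11043 of all 22695 genes. GPD1L read 9.67 and 9.72 in TT controls and 10.35 and 10.38 with the inhibitor (0.67, SE 0.149, adjusted p = 0.259, limma). HK2 read 7.31 and 7.19 against 7.89 and 7.65 (0.52, adjusted p = 0.245). In both genes the treated arrays lay above the controls, though genes were chosen here for moving the same way in both pairs. PDK4 read 7.39 and 7.59 against 8.08 and 8.05 (0.58, adjusted p = 0.467). ALDOC, the brain aldolase, read 4.69 and 4.06 against 4.89 and 4.99 (0.57, 0.371). The phosphatase PDP2 read 6.51 and 6.12 against 7.44 and 6.28 (0.54, 0.463). The groups of PDP2 overlapped, and HKDC1 is given above. How many of all genes had groups apart was not counted, so groups that lie apart are no support here. SLC2A1 had 0.51 (adjusted p = 0.24), from 9.31 and 9.18 to 9.81 and 9.69. LDHB had 0.29 (adjusted p = 0.428), SLC16A3 0.23 (0.416) and SLC2A3 -0.07 (0.785).

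The change with the mimic minus that with the inhibitor was also tested for the 40 genes of the set measured in both lines. The difference was called for 6 of them, 1 higher (SLC2A3) and 5 lower (LDHB, HK2, GPD1L, SLC2A1 and SLC16A3), against 6.11% of all 19198 genes tested, with 2.59% higher and 3.52% lower. The reagents act in opposite ways, so a gene that one lowers and the other raises also passes this test.

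The control cells of the 2 lines differed in the RNA levels of paralogs of several enzymes. Of 43 genes of the set tested, 29 (67.4%) were called, 10 higher and 19 lower in TT, against 47.6% of all 23138 genes tested, with 24.3% higher and 23.3% lower. With the log2 values that the authors deposited, normalized within each line, all genes had a median difference of -0.30 and the split was 4218 higher and 8033 lower. Each slide held 1 line, so the line and the slide cannot be told apart. The TT controls also had an RNA integrity number of 8 and a labelled concentration of 20 nM, those of Nthy-ori 3-1 9 and 5 nM. These too cannot be told apart from the line. This comparison uses the same Nthy-ori 3-1 control arrays as that of the mimic.

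All 5 lactate genes were called lower in TT, against 23.3% of all genes tested. LDHA was not called in every alternative, and SLC16A1 could only be called lower, as told below. LDHB read 5.98 and 5.89 in TT, a difference of -10.55 (SE 0.315, adjusted p = 3.5e-06, limma). SLC16A3 read 8.06 and 7.82 (-8.09, adjusted p = 1.4e-06). SLC16A1 read 9.12 and 8.98 in Nthy-ori 3-1 and 1.98 and 1.91 in TT. It was not above background on any TT array. It was tested through the Nthy-ori 3-1 arrays alone, so its call (adjusted p = 1.59e-06) could only be lower. Its level in TT was at least 50.2-fold lower than in Nthy-ori 3-1. Such a bound sets the mean of the brighter group against the lowest signal well above background on each array of the other. LDHC read 9.69 and 9.36 in Nthy-ori 3-1 and 4.00 and 5.95 in TT (-4.55, 0.00185). LDHA had -1.31 (0.0347), and its call was lost without any 1 of the 4 control arrays and with dim probes kept. Of the lactate genes, LDHA was thus the one with the smallest difference.

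The phosphofructokinase, phosphoglycerate mutase and enolase steps each had paralogs that went opposite ways. PFKP, the platelet form of phosphofructokinase, read 14.72 and 15.07 in Nthy-ori 3-1 and 4.99 and 5.13 in TT (-9.84, adjusted p = 1.39e-06, limma). The muscle form PFKM was higher in TT by 1.06 (0.00242) and the liver form PFKL had -1.39 (0.0434), a call lost without any 1 control array, without the slide block and with dim probes kept. PGAM2, the muscle mutase, read 6.56 and 6.18 in Nthy-ori 3-1 and 13.75 and 13.68 in TT (7.34, adjusted p = 5.05e-06), while PGAM1 had -1.36 (0.00301). The muscle enolase ENO3 was higher in TT by 4.82 (2.06e-05), from 9.89 and 9.30 to 14.46 and 14.39, and ENO1 lower (-2.69, 0.000955). GAPDH, TPI1 and ALDOA had -0.18, -0.08 and -0.42 and were not called.

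Of the regulators, PFKFB3 read 9.74 and 10.25 in Nthy-ori 3-1 and 2.29 and 1.96 in TT, where it was not above background and at least 96.8-fold lower. It too was tested through the Nthy-ori 3-1 arrays alone, so its call (adjusted p = 1.47e-05, limma) could only be lower. The kinase PDK2 read 10.17 and 9.63 against 5.54 and 5.52 (-4.37, 5.78e-05). PDK4 read 3.99 and 5.28 against 7.39 and 7.59 (2.86, 0.00363). These kinases thus went opposite ways. HK2 read 7.31 and 7.19 in TT, a difference of -3.51 (3.51e-05), and SLC2A1 read 9.31 and 9.18 (-2.76, 4.25e-05). Both were lower than on any Nthy-ori 3-1 array, those with the mimic included. The 3 genes of mitochondrial pyruvate entry were all higher in TT, PC by 1.80 (0.00139), MPC1 by 1.75 (0.000599) and MPC2 by 1.42 (0.000732). Among all genes tested 24.3% were called higher. GPD1L was higher in TT by 0.78 (0.0301), a call lost with the deposited values (where it was 0.32), without the second Nthy-ori 3-1 control array and without either TT control array, and SLC2A3 had 0.75 (0.104). The probes of HKDC1 did not give 1 direction between the lines, at -0.63 (0.0416) for the brighter and 0.16 (0.817) for the other. The call of the brighter probe was lost in 7 of 13 alternatives, among them the omission of any control array.

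**Figure D3:**
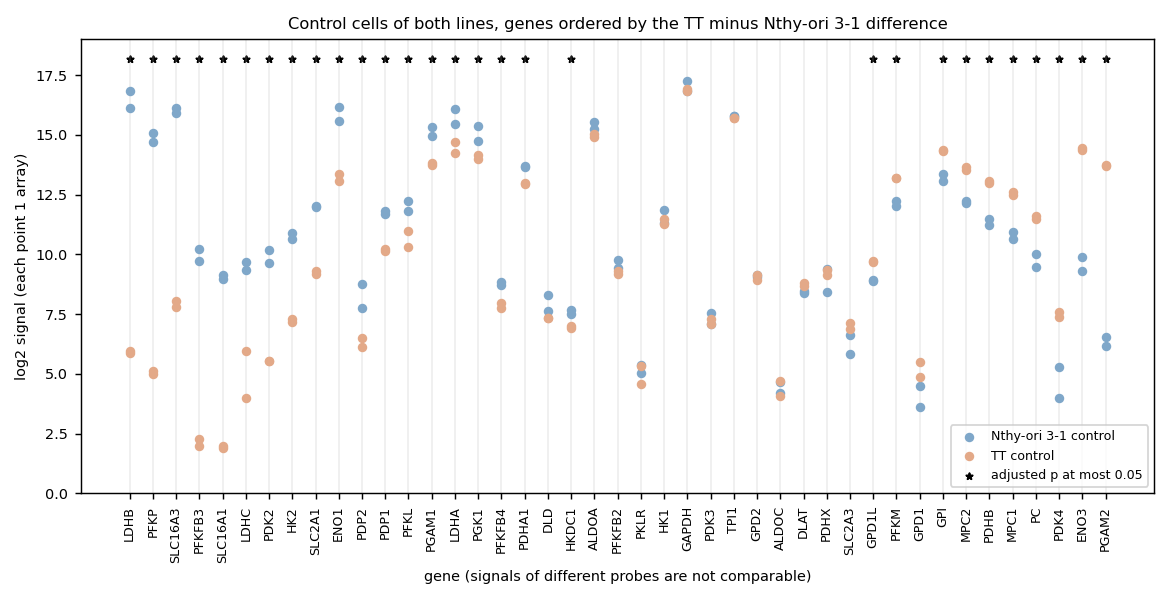
Log2 signal (vertical axis) of the 43 genes tested on the 2 control arrays of each line, ordered from the most negative to the most positive difference of TT minus Nthy-ori 3-1. Stars mark the 29 genes with an adjusted p of at most 0.05, and LDHB at -10.55 and PGAM2 at 7.34 stand at the ends.

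Genes of neighbouring pathways were counted in the same fits. With pre-miR-375, 0 of 10 pentose phosphate genes and 0 of 5 gluconeogenesis genes were called. In the tricarboxylic acid cycle 2 of 18 (11.1%) were lower, against 4.95% of all genes called lower and 8.72% called in either direction, SDHD (-1.19, adjusted p = 0.0249, limma), a membrane anchor of succinate dehydrogenase, and SUCLG2 (-0.89, 0.0353), a subunit of succinyl-CoA ligase. In glycogen metabolism 1 of 10 (10%) was lower, PGM2 (-0.93, 0.0281). Of 13 hypoxia-responsive genes outside glycolysis 4 (30.8%) were lower and 0 higher, with a list median of -0.62 on the log2 scale. They were the transcriptional regulator MXI1 (-1.58, 0.0218), the carbonic anhydrase CA9 (-1.45, 0.0237), the peptide hormone ADM (-1.39, 0.0229) and the mitophagy gene BNIP3 (-0.95, 0.0278). HK2, SLC2A1 and SLC16A3 are widely known as hypoxia-responsive too, and a part of hypoxia signalling in these changes was not tested. These lists were chosen with earlier results of these data known. No gene of the 5 lists was called in TT cells, where none of all 22695 genes tested was called either.

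**Figure D4:**
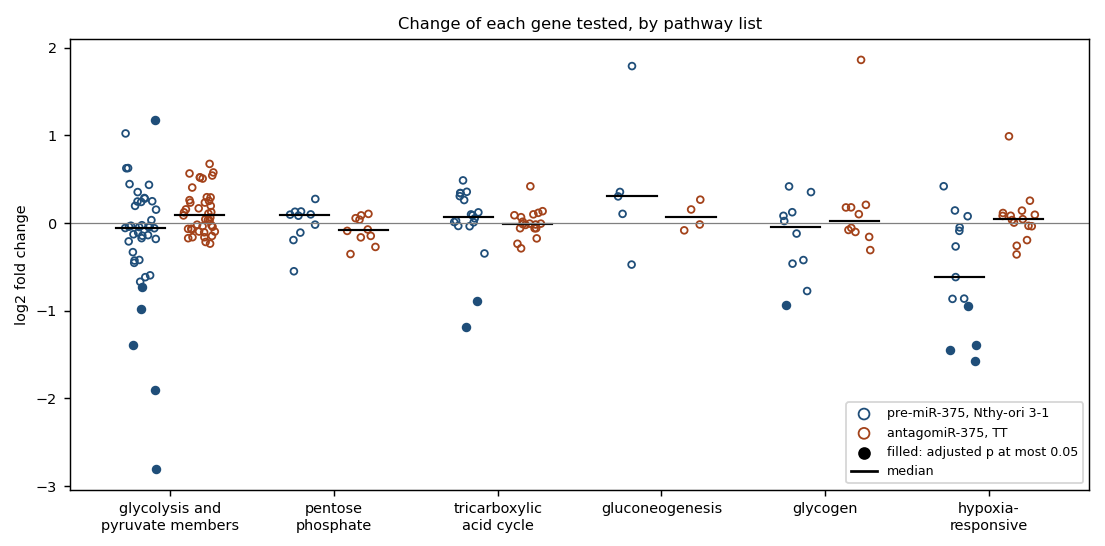
Log2 fold change (vertical axis) of each gene tested in the set and in 5 other lists, for pre-miR-375 in Nthy-ori 3-1 (blue) and antagomiR-375 in TT (orange), with the list median as a black line. Filled points have an adjusted p of at most 0.05. The hypoxia-responsive list has its median at -0.62 in Nthy-ori 3-1 and 0.04 in TT.

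Promoter windows of the lowered genes are shown because several genes of the set are known targets of factors that bind the core letters ACGTG. Windows run from 250 bases before to 50 bases after a transcript start (RefSeq, GRCh38.p14), and ACGTG was searched on both strands, so that CACGTG counts once for each strand. Of the 39 genes of the set with a window, 22 (56.4%) held it in at least 1, against 24.9% of 27305 genes. The 39 genes of the set had 75 windows, more per gene than among all genes, which gives more room for a match. Counted by window it was 34.7% in the set and 21.4% among all 35116. All genes here are those with a window, tested on the arrays or not, and base composition was not matched. Of the 5 lowered genes 3 held it, HK2, GPD1L and SLC16A3. The HK2 window with the most matches and the single LDHB window, with 0, are printed with matches in capitals. The HK2 window is chr2:74834920-74835219 on the plus strand and that of LDHB chr12:21657793-21658092 on the minus strand.
HK2: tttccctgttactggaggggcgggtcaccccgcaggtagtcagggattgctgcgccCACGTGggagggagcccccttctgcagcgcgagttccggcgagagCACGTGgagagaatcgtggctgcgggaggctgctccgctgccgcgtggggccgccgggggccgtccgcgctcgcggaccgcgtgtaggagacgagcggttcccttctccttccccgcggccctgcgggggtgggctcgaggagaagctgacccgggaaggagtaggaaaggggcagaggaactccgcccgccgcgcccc
LDHB: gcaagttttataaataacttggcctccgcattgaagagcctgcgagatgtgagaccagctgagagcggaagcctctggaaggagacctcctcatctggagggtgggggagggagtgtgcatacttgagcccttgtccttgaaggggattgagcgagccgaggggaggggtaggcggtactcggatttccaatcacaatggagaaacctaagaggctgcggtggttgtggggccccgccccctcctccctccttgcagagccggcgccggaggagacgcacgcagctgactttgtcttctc
A match is a description of these letters and not of binding, which was not measured.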

How the data were processed

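RNA of 4 groups (2 arrays each) was hybridized to one-colour Agilent SurePrint G3 arrays. For each array the authors deposited the Feature Extraction 10.10.1.1 output, in which each spot has a background-subtracted processed intensity, not normalized between arrays. The authors also deposited a table of normalized log2 values, used as an alternative only. The labels give the molecule as polyA RNA and the methods as total RNA, and the concentrations were taken from the labels, where the methods state higher ones.

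Control spots and spots marked as outliers (341 to 428 per array) were left out, spots of a probe were averaged, and the log2 processed intensities were brought to a common distribution over all 8 arrays (quantile normalization, limma 3.58.1, R 4.3.3). No spot was saturated. Probes had to be well above background on at least 2 arrays of a comparison. Treatments were fitted with lmFit and eBayes over all 8 arrays with the slide as a fixed block (2 residual degrees of freedom), and the lines by 4 group means with the slide as a random block (correlation 0.658). Benjamini-Hochberg adjustment ran across every probe that a comparison tested, and a gene was read by its brightest probe. Within a line, replicate differences of control and treated arrays, which share a slide by their number, correlated at 0.785 (Nthy-ori 3-1) and 0.33 (TT). The steps were tested on simulated data. The number of arrays limits the precision.

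Values on every array are given for HKDC1, GPD1L and, in each treatment, up to 12 called genes with the largest change, or, with under 6 called, the 6 largest going the same way in both pairs; between lines, up to 12 called. Some further genes are named by list. The members, lists and rules were chosen with earlier results of these data known. Columns of other samples were 0. Fibroblast, endothelial and blood cell markers were also counted. Of 3 fibroblast genes tested with pre-miR-375 0 was called, and of 4 endothelial and blood genes 1 (CD68, -0.96) was lower, against 8.72% of all genes called. Some genes that the rules name are not reported here.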

Additional observations from a re-analysis of the deposited data

Results flagged for a closer look

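The change with pre-miR-375 in Nthy-ori 3-1 minus the change with antagomiR-375 in TT was tested in the same fit, and 6 genes of the set passed (limma, adjusted p of at most 0.05, against 6.11% of all 19198 genes tested). The reagents act in opposite ways and at different concentrations, so a difference is not in itself a difference between the lines. It was -3.1 on the log2 scale for LDHB, -2.42 for HK2, -2.07 for GPD1L, -1.49 for SLC2A1, 1.25 for SLC2A3 and -0.963 for SLC16A3. SLC2A3 is the one of the 6 with a positive value. None of the 6 was called when a pair of arrays was left out or when dim probes were kept.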

How the results depend on the processing

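With pre-miR-375, genes of the set called were 6 as reported and 0 with each line fitted alone, 0 with dim probes kept, 14 with normexp background, 13 with median signal without background correction, 11 with deposited values and 13 with an intensity trend. The same settings called 0, 0, 4295, 3866, 3928 and 4051 of all genes, against 1803. Without the replicate block, 421 of all genes and 4 of the set were called (SLC2A3 and SLC16A3 were lost), and for the difference between the treatments 53 and 1. Leaving out a pair of arrays gave 0 to 0 for genes of the set and for all genes, in the pre-miR-375 comparison and in the difference, since few residual degrees of freedom remain. With antagomiR-375, all genes called were 142 with normexp, 58 with median signal, 48 with deposited values and 74 with an intensity trend, and 0 with a pair left out. The difference between the treatments had 0 of all genes and 0 of the set with dim probes kept, 2035 genes with probes above background on all arrays, 3034 and 12 with normexp, 2605 and 10 with median signal, 2635 genes with deposited values, and 3342 and 13 with an intensity trend. Between the lines, leaving out a control array gave 23 to 25 genes of the set and 8993 to 10042 of all genes.

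Sign changes concerned values that were not called, with the exception of HKDC1 between the lines, at -0.63 by its brighter probe (called in 6 of 13 alternatives) and at 0.16 by the other. Other probes also gave -0.43 for SLC2A1 and 0.22 for SLC2A3 in TT, and -0.45 for SLC2A3 between the lines. With 75th percentile scaling PGAM2 had 0.025 with pre-miR-375, ALDOC 0.32 between the lines, and LDHC 0.012 and ALDOC 0.11 in the difference between the treatments. With normexp ALDOC had 0.00049 between the lines, and the difference was -0.075 for PFKP and -0.088 for PDK4. With median signal the difference was 0.15 for LDHC, -0.0089 for PFKP and -0.082 for PDK4, and with deposited values 0.18 for LDHC and -0.056 for PDK4. Leaving out a pair gave -0.29 to 0.23 for PGAM2 and -0.20 to 0.10 for ENO3 with pre-miR-375, and -0.82 to 0.50 for LDHC and -0.077 to 0.32 for PDK2 in TT. For the difference it gave -0.68 to 0.64 for LDHC, -0.49 to 0.24 for ALDOC, -0.29 to 0.016 for ENO3, -0.46 to 0.065 for PGAM2, -0.087 to 0.98 for PDK4 and -0.036 to 0.36 for PDK2. ALDOC between the lines ran from -0.40 to 0.31 without a control array. The causes were not tested.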
